A study of Mus musculus with 58 samples.

Results

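Pyruvate dehydrogenase, its kinases and phosphatases, and the enzymes of the tricarboxylic acid (TCA) cycle with its feeder reactions were followed in the muscles of mice carrying human pancreatic tumours. The module was a list of 34 gene symbols, and its members were the probe sets whose platform annotation carried one of these symbols. Of the 34 symbols, 32 had a named probe set among the 23185 named genes of the arrays. They were 5 subunits of the pyruvate dehydrogenase complex, 7 kinase and phosphatase genes, 14 genes of the TCA cycle and 6 genes of anaplerosis, malic enzymes and the aspartate shuttle. Mpc1 and Mpc2, the mitochondrial pyruvate carrier, were not analysed here.

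The tibialis anterior (TA), a fast hindlimb muscle, and the diaphragm (DIA), the main breathing muscle, were taken from adult female NSG mice. These mice are immunodeficient and tolerate human grafts. PDX mice (patient-derived xenograft) carried on the pancreas a piece of a pancreatic ductal adenocarcinoma from a patient with cachexia, the wasting of muscle and fat, and sham mice were operated on without receiving a tumour. Each of 4 cohorts used the tumour of another patient and had its own sham mice, so cohort and tumour cannot be told apart. PDX muscles were sampled from 3, 5, 5 and 4 mice in cohorts 1 to 4, against 3 sham mice in each cohort, which gave 17 PDX and 12 sham arrays of each muscle and 58 arrays in all. All mice shared the strain and all were operated on. Tissue of PDX mice was collected at severe cachexia or at a limit of tumour size, and the time for sham mice is not given here.

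The pyruvate dehydrogenase complex sits in the mitochondrial matrix and turns pyruvate, the end product of glycolysis, into acetyl-CoA, which enters the TCA cycle. Kinases (Pdk genes) phosphorylate the complex and switch it off, and phosphatases (Pdp genes) switch it on again. In muscle, Pdk4 is well known to rise in fasting and under glucocorticoids, when fat replaces glucose as fuel. The TCA cycle oxidises acetyl-CoA to carbon dioxide and feeds the respiratory chain, and muscles rich in mitochondria run it at high capacity.

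Values are the authors' log2 expression levels, on which a difference of 1 is a doubling. The tumour effect is the mean over the 4 cohorts of PDX minus sham, with its standard error (SE), and a gene passed with an adjusted p under 0.05 from limma over all 23185 genes. Levels of different genes are not compared, because probe sets differ in brightness. In whole muscle, fewer cells of a type and less RNA per cell cannot be told apart. The number of arrays limits the precision.

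Some libraries stood apart. On 11 of the 29 diaphragm arrays (6 PDX and 5 sham) the mean level of 13 hepatocyte markers lay more than 1 log2 unit above the diaphragm median. The hepatocyte mean ran between 4.04 and 11.2 in PDX diaphragms (median 6.78) and between 4.08 and 10.8 in sham diaphragms (median 6.14), and no marker of the list differed between PDX and sham by the test. Results of the diaphragm are therefore also given without these 11 arrays, called the arrays with hepatocyte signal. A hepatocyte mean of 6 or more was found on 15 of the 29 diaphragm arrays, so some signal remained in that fit. There 1 of the 13 markers was below 0, with a median of 0.75 and 0 past the threshold. In TA, 5 of 6 tendon markers and 7 of 7 fibroblast markers were lower in PDX mice. The tendon mean lay between 3.57 and 5.48 in TA PDX muscles (median 4.15) and between 4.87 and 6.86 in TA sham muscles (median 5.44). The fibroblast mean lay between 4.88 and 6.99 in TA PDX muscles (median 6.12) and between 7.11 and 7.86 in TA sham muscles (median 7.42), without overlap. In the diaphragm, 7 of 8 macrophage markers were higher in PDX mice, with means between 6.13 and 7.84 (median 6.71) against 5.61 to 6.52 in sham mice (median 5.92). Skeletal muscle markers were bright in every group, with means between 9.61 and 11.7, and pancreatic acinar markers stayed between 2.48 and 3.24, at or under the median of all values of 3.84.

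Across the module, most genes that changed fell. In TA, 12 of the 32 members were lower and 2 were higher in PDX mice, where 6.53% and 6.32% of all genes passed in these directions. In the diaphragm, 15 members were lower and 2 were higher, against 6.58% and 5.89% of all genes. The median difference of the 32 members fell by 0.14 in TA and by 0.26 in the diaphragm, while the median over all genes was -0.0051 in TA and -0.0043 in the diaphragm. In the diaphragm, 7 of 7 skeletal muscle markers were also below 0, with a median of -0.25 and 2 past the threshold as lower (Pvalb, Mb). Their mean level was lowest at 9.61 in PDX diaphragms (median 10.31) and at 10.01 in sham diaphragms (median 10.7), and the ranges overlapped. Their part in the members' values was not tested. Both muscles had 9 members in common that were lower, namely Pdhb, Pdhx, Dlat, Dld, Idh3a, Dlst, Fh1, Mdh1 and Mdh2. Another 3 passed as lower in TA alone (Pdha1, Cs, Idh3b) and 6 in the diaphragm alone (Pdk1, Pdp2, Sucla2, Suclg1, Suclg2, Me1), which by itself does not show that the muscles differed. The members that passed as higher were Pdk4 and Idh2 in TA and Pdk3 and Me2 in the diaphragm. Got1, Got2, Idh1, Idh3g, Me3, Ogdh, Pcx, Pdk2, Pdp1 and Pdpr passed in neither muscle.

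**Figure D1:**
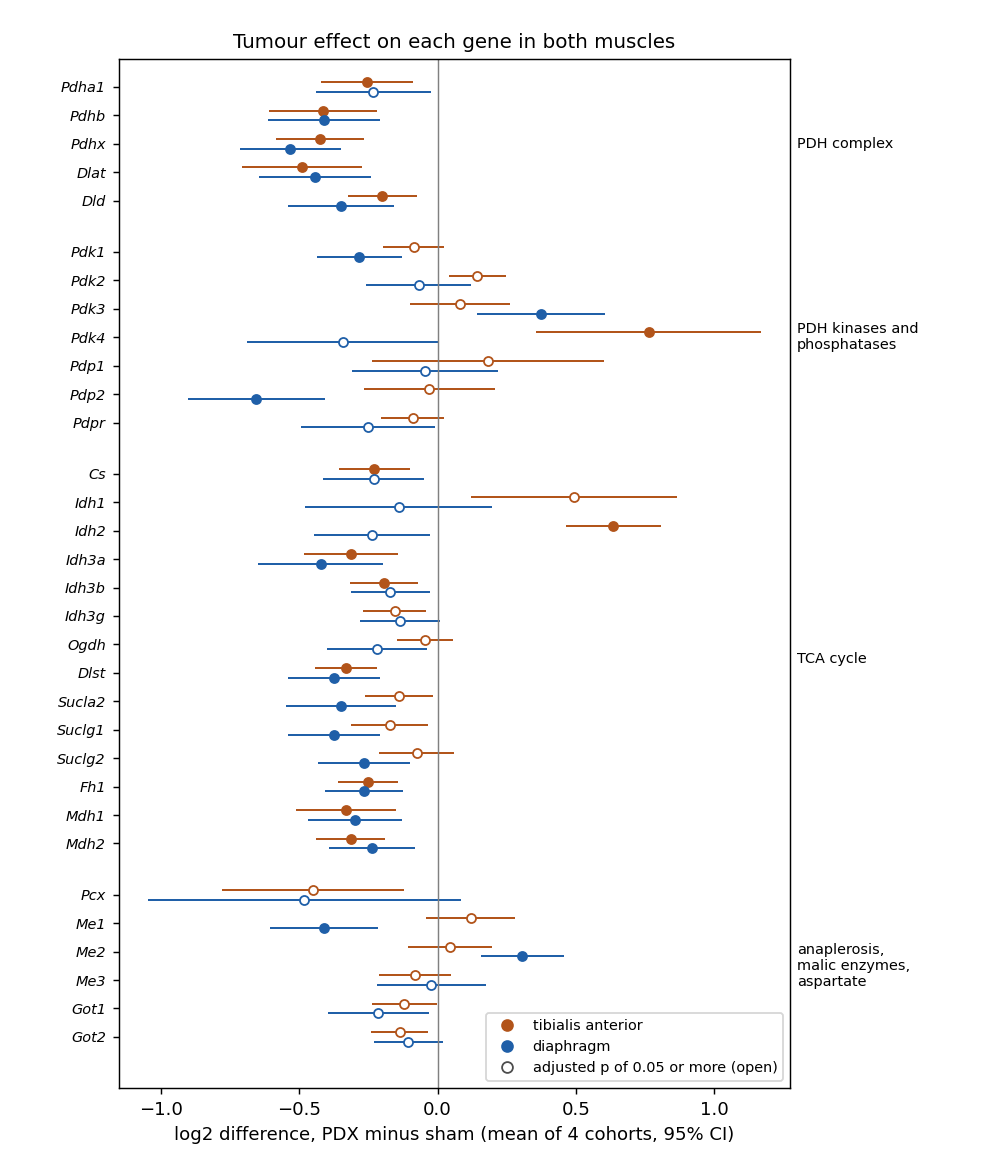
Tumour effect of the 32 genes in TA (brown) and diaphragm (blue), as the log2 difference PDX minus sham averaged over 4 cohorts, with 95% confidence intervals and filled points where the adjusted p was under 0.05. All 5 complex subunits lie left of 0 in both muscles, and Pdk4 and Idh2 lie right of 0 in TA only.

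Without the 11 diaphragm arrays with hepatocyte signal, 6 members passed as lower in the diaphragm (Pdhx, Pdk1, Pdp2, Idh3a, Dlst, Suclg1) and 0 as higher. Of all genes, 1526 were lower and 1366 higher with every array, and 676 and 762 without those 11. At an unadjusted p under 0.05, 19 members were lower and 2 were higher in that fit by limma. How many of all genes reached this unadjusted threshold was not counted. All 17 members called with every array kept their direction. The median difference of the 15 lower members was -0.36 without those arrays and -0.38 with all arrays, while their SE was 1.21 times as large. A stricter exclusion left out cohort 1 and all 15 arrays with a hepatocyte mean of 6 or more. Under it Pdhx and Pdp2 passed as lower and 0 members as higher, while 350 of all genes were lower and 304 higher. The median of the 15 lower members was -0.33 there, and the SE was 1.38 times as large. With the mean of the hepatocyte markers as a covariate on all 29 arrays, 20 members were lower and 2 were higher. There 1886 of all genes were lower and 1598 higher. With the mean of slow fibre markers as a covariate, 9 members of the diaphragm were lower (Pdhx, Dlat, Pdp2, Idh1, Dlst, Suclg1, Suclg2, Pcx, Me1). Idh1 and Pcx among them had not passed without the covariate. Pdhb, Dld, Pdk1, Idh3a, Sucla2, Fh1, Mdh1 and Mdh2 lost their calls. The median of the 15 members called lower without the covariate was -0.20 with it. Over all genes, 1641 were lower and 1691 higher in this fit. Slow fibre markers had means between 8.18 and 9.16 in PDX diaphragms (median 8.81) and between 8.75 and 9.78 in sham diaphragms (median 9.02), and 1 of the 7 passed as lower.

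For TA, a fit with the mean of the tendon markers as a covariate left 0 of the 32 members past the threshold in either direction. That covariate moved with the tumour, as its ranges show, and left 1 gene of all 23185 past the threshold. The SE of the called members was 2.14 times as large in it, and 10 of the 14 kept their direction. By limma, 0 members were lower and 0 higher at an unadjusted p under 0.05. The part of the fibroblast markers in the TA results and of the macrophage markers in the diaphragm results was not tested.

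**Figure D2:**
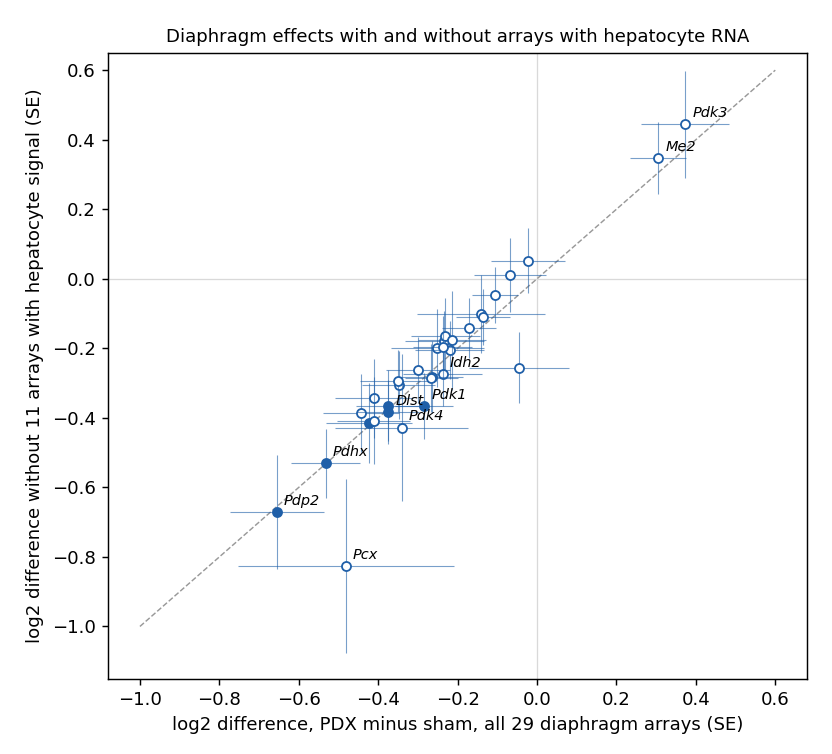
Diaphragm tumour effects of the 32 genes in log2 units with all 29 arrays (x axis) and without the 11 arrays with hepatocyte signal (y axis), bars giving SE, the dashed line marking equality and filled points an adjusted p under 0.05 on the y axis. Most genes lie near the line, and Pcx lies below it at -0.83 without those arrays against -0.48 with them.

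Promoters of 4 members are shown because these genes carry the main contrasts. Pdk4 and Idh2 rose in TA, and Pdhx and Dlst fell in both muscles. The sequences are RefSeq promoter windows of GRCm38.p6, from 250 bases before to 30 bases after the annotated transcription start. Pdk4 lies at chr6:5496249-5496528 on the minus strand, Idh2 at chr7:80115321-80115600 on the minus strand, Pdhx at chr2:103073484-103073763 on the minus strand and Dlst at chr12:85110583-85110862 on the plus strand. Capitals mark a CCAAT box (CCAAT), an ETS core (CCGGAA) or a core of the NRF1 motif (TGCGCA) on either strand.
Pdk4: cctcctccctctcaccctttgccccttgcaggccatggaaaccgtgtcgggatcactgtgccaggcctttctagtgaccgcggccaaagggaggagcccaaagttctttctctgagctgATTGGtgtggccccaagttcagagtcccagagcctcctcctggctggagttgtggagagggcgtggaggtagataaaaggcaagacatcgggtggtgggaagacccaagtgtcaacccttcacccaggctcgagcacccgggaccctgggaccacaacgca
Idh2: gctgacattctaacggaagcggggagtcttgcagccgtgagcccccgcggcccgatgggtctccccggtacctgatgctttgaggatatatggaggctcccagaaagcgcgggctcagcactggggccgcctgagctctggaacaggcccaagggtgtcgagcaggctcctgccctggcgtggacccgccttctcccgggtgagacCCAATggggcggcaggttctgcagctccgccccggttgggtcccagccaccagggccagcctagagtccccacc
Pdhx: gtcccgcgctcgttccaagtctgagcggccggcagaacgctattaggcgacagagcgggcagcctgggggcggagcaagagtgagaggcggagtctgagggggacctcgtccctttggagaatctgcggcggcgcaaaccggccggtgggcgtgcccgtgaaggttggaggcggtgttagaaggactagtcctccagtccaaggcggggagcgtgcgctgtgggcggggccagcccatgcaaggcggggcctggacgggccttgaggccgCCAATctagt
Dlst: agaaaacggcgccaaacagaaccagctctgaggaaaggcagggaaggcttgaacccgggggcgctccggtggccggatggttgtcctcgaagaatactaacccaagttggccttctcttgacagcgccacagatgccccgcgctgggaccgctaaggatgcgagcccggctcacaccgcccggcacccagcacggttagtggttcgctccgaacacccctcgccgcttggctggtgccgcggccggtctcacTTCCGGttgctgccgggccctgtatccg
The capitals in Pdk4 begin at position -131, those in Idh2 at -44 and those in Pdhx at 21 from the start site, and each is a CCAAT box. In Dlst the capitals begin at position 3 and are an ETS core.

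Of the 32 members, 29 matched a promoter window, with 39 windows in all, since some genes have several start sites. A CCAAT box stood in 24 of the 39 windows (61.5%), against 37.4% of 32851 windows of the same 300 bases over all genes. GC boxes (GGGCGG) stood in 59.0% of member windows, against 35.7% of all windows. Member windows were also richer in GC, with a median of 61.0% against 52.7% in all windows. ETS cores stood in 17.9% of member windows and 14.9% of all windows, and NRF1 cores in 12.8% and 7.76%. These 4 motifs were chosen after the members' values had been seen. For the FoxO motif (GTAAACA) 0 of 39 windows held a match, against 3.65% of all windows. The motif of the estrogen-related receptors (AAGGTCA) stood in 5.13% of member windows and 4.72% of all windows, in Ogdh and Got1. A short glucocorticoid receptor motif (AGAACA) stood in 10.3% of member windows and 19.0% of all windows. Both strands were searched, each motif was counted on its own whatever it overlapped, and a match or its lack in this window is a description only.

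All 5 genes of the pyruvate dehydrogenase complex fell in TA, and 4 of the 5 fell in the diaphragm. Dlat encodes the dihydrolipoamide acetyltransferase that forms the core of the complex. Its level ran between 7.02 and 8.81 in TA PDX muscles (median 8.47) and between 8.67 and 9.10 in TA sham muscles (median 8.86). All 17 TA PDX arrays lay below the sham mean of their cohort, and 15 lay below the lowest sham array of the muscle. The difference was -0.49 (SE 0.10, adjusted p = 0.0017, limma), which is 0.71 of the sham level. In the diaphragm, Dlat lay between 7.66 and 8.76 in PDX mice (median 8.33) and between 8.44 and 8.89 in sham mice (median 8.75). The groups overlapped, with 16 of 17 PDX arrays below the sham mean of their cohort and a difference of -0.44 (SE 0.10, adjusted p = 0.0028). This diaphragm call was lost without the arrays with hepatocyte signal.

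Pdhx, the protein that binds dihydrolipoamide dehydrogenase to this core, had the largest fall of the complex in the diaphragm. PDX diaphragms held levels between 6.49 and 7.46 (median 7.04), against 7.35 to 7.83 in sham diaphragms (median 7.62). Only 2 of the 17 PDX arrays reached the sham range, and the difference was -0.53 (SE 0.09, adjusted p = 0.00021). It was also -0.53 without the arrays with hepatocyte signal (adjusted p = 0.0086). In TA, Pdhx lay between 6.68 and 7.71 in PDX muscles (median 7.43) and between 7.57 and 8.09 in sham muscles (median 7.82). All 17 TA PDX arrays were below the sham mean of their cohort, at -0.42 on average (SE 0.08, adjusted p = 0.00028).

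Pdhb and Pdha1 encode the subunits of the first enzyme of the complex, which decarboxylates pyruvate. Pdhb ran between 7.70 and 9.33 in TA PDX muscles (median 8.88) and between 8.97 and 9.53 in TA sham muscles (median 9.21). In the diaphragm it ran between 8.19 and 9.27 in PDX mice (median 8.83) and between 9.004 and 9.37 in sham mice (median 9.21). It fell by 0.42 in TA (SE 0.09, adjusted p = 0.0030) and by 0.41 in the diaphragm (SE 0.10, adjusted p = 0.0054), with overlap of the groups in both. The diaphragm difference was -0.34 without the arrays with hepatocyte signal and did not pass (adjusted p = 0.089).

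Pdha1, which carries the sites that the kinases phosphorylate, changed least among the subunits of TA apart from Dld. Its levels ran between 8.86 and 9.80 in TA PDX muscles (median 9.49) and between 9.57 and 10 in TA sham muscles (median 9.70), a difference of -0.25 (SE 0.08, adjusted p = 0.030). This call was lost when any of 7 arrays was left out (TA PDX cohort 1 replicates 1 and 3, TA PDX cohort 4 replicate 2, TA sham cohort 1 replicate 3, cohort 2 replicate 1, cohort 3 replicate 3 and cohort 4 replicate 1), with an adjusted p of at most 0.066. In the diaphragm Pdha1 differed by -0.23 (SE 0.10, adjusted p = 0.14), and 11 of 17 PDX arrays lay below the sham mean of their cohort.

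Dld, the dihydrolipoamide dehydrogenase shared with the other 2-oxoacid dehydrogenases, ran between 9.07 and 9.83 in TA PDX muscles (median 9.53) and between 9.61 and 9.92 in TA sham muscles (median 9.76). It fell by 0.20 in TA (SE 0.06, adjusted p = 0.022), a call lost without TA PDX cohort 1 replicate 3 (adjusted p = 0.050). In the diaphragm it ran between 8.86 and 9.87 in PDX mice (median 9.46) and between 9.55 and 9.93 in sham mice (median 9.81), and fell by 0.35 (SE 0.09, adjusted p = 0.012). The diaphragm call of Dld was lost without the arrays with hepatocyte signal and without cohort 1. For no subunit did the difference of the tumour effect between the muscles pass, with differences (diaphragm minus TA) between -0.15 and 0.05, and the widest interval, that of Dlat, ran between -0.25 and 0.34.

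**Figure D3:**
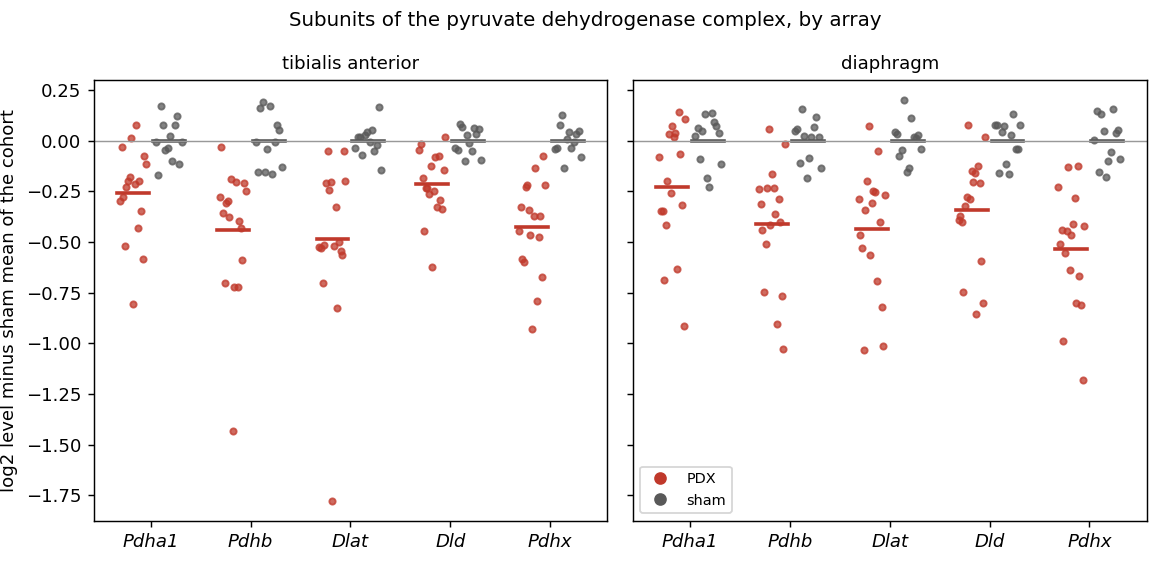
Log2 level of the 5 subunits of the pyruvate dehydrogenase complex on every array, minus the sham mean of the same cohort and muscle, for PDX (red, left) and sham (grey, right), with bars at the mean over arrays. For Pdhx, all 17 PDX arrays lie below 0 in both muscles.

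Within TA PDX muscles, 1 array lay far below the others. Cohort 3 replicate 1 held Dlat at 7.02 and Pdhb at 7.70, the lowest of all 58 arrays for both. Without it, the TA differences were -0.43 for Dlat (adjusted p = 4.2e-05) and -0.37 for Pdhb (adjusted p = 0.00073). In that fit 5 members were higher in TA instead of 2, because Idh1 at 0.60, Pdk2 at 0.16 and Pdp1 at 0.33 passed as well. The same 12 members were lower, joined by Pcx at -0.47 (adjusted p = 0.046).

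Among the kinases, which inactivate the complex, the 2 muscles parted on Pdk4. Pdk4 levels ran between 8.34 and 11.7 in TA PDX muscles (median 10.4) and between 9.04 and 10.3 in TA sham muscles (median 9.46). PDX arrays were high on the whole, with 15 of 17 above the sham mean of their cohort and 10 above the highest sham array, but cohort 2 replicate 3 was the lowest of the muscle. Pdk4 rose by 0.76 in TA (SE 0.20, 95% CI 0.36 to 1.17, adjusted p = 0.0086), which is 1.70-fold. The difference was positive in each cohort, at 0.56, 0.60, 1.05 and 0.85 in cohorts 1 to 4. With the tendon marker mean as a covariate it turned to -0.60 (adjusted p = 0.998). With cohort 3 or cohort 4 left out, it was 0.67 (adjusted p = 0.063) and 0.73 (adjusted p = 0.057).

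In the diaphragm, Pdk4 ran between 8.74 and 10.7 in PDX mice (median 9.89) and between 9.55 and 10.7 in sham mice (median 10.1). The groups overlapped widely, and the difference was -0.34 (SE 0.17, adjusted p = 0.22). Cohort differences were -0.83, -0.46, 0.16 and -0.23. The diaphragm effect minus the TA effect was -1.10 (SE 0.27, adjusted p = 0.0067), and -1.19 without the arrays with hepatocyte signal (adjusted p = 0.026).

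Pdk1, Pdk2 and Pdk3 followed other patterns. Pdk1, a kinase induced by hypoxia in many cells, fell by 0.28 in the diaphragm (SE 0.07, adjusted p = 0.010), with levels between 6.29 and 7.16 in PDX mice (median 6.84) against 6.78 to 7.34 in sham mice (median 7.06). It fell by 0.37 without the arrays with hepatocyte signal (adjusted p = 0.032). Its diaphragm cohort differences were -0.23, -0.55, -0.03 and -0.33 in cohorts 1 to 4. The call was lost without cohort 2, with the cohort as the replicate and under the stricter exclusion. In TA its difference was -0.09 (SE 0.05, adjusted p = 0.34).

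Pdk2, the most widely expressed kinase of the family, ran between 10.2 and 10.7 in TA PDX muscles (median 10.6) and between 10.2 and 10.5 in TA sham muscles (median 10.4). On 14 of 17 PDX arrays it lay above the highest sham array, yet the difference of 0.14 just missed the threshold (SE 0.05, adjusted p = 0.051). Its diaphragm difference was -0.07 (SE 0.09, adjusted p = 0.75).

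Pdk3 was dim, with TA means below the median of all values, where array signals compress differences. Its diaphragm difference was 0.37 (SE 0.11, adjusted p = 0.026), with levels between 3.7 and 5.10 in PDX mice (median 4.33) against 3.495 to 4.32 in sham mice (median 3.87). Cohort differences were 0.65, 0.73, 0.15 and -0.04. The call was lost without any of 4 arrays (DIA PDX cohort 1 replicate 2, DIA sham cohort 1 replicate 3, cohort 2 replicate 3 and cohort 3 replicate 1), at differences no lower than 0.33 and an adjusted p of at most 0.061. Once the arrays with hepatocyte signal were left out, the difference was 0.44 and did not pass (adjusted p = 0.10).

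Pdp2, a phosphatase that reactivates the complex, had the largest fall among the members that passed. It ran between 3.17 and 4.56 in PDX diaphragms (median 4.13) and between 4.44 and 5.42 in sham diaphragms (median 4.67). All 17 PDX arrays lay below the sham mean of their cohort and 15 below the lowest sham array. The difference was -0.66 (SE 0.12, adjusted p = 0.00055), and -0.67 without the arrays with hepatocyte signal (adjusted p = 0.026). In TA, Pdp2 averaged 3.60 in PDX muscles and 3.64 in sham muscles, both below the median of all values, where a fall could hardly be measured. The diaphragm effect minus the TA effect was -0.63 (SE 0.17, adjusted p = 0.015), and -0.64 without the arrays with hepatocyte signal, where it did not pass (adjusted p = 0.063).

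Pdp1, the phosphatase stimulated by calcium, differed by 0.18 in TA (SE 0.20, adjusted p = 0.68) and by -0.05 in the diaphragm (SE 0.13, adjusted p = 0.90). Its TA value rested on cohort 3 replicate 1, which held 5.88 where the other PDX arrays of its cohort held 8.61 to 8.92, and without it the difference was 0.33 (adjusted p = 0.0010). Pdpr, a regulatory subunit of the phosphatase, differed by -0.09 in TA (adjusted p = 0.34) and by -0.25 in the diaphragm (adjusted p = 0.19).

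**Figure D4:**
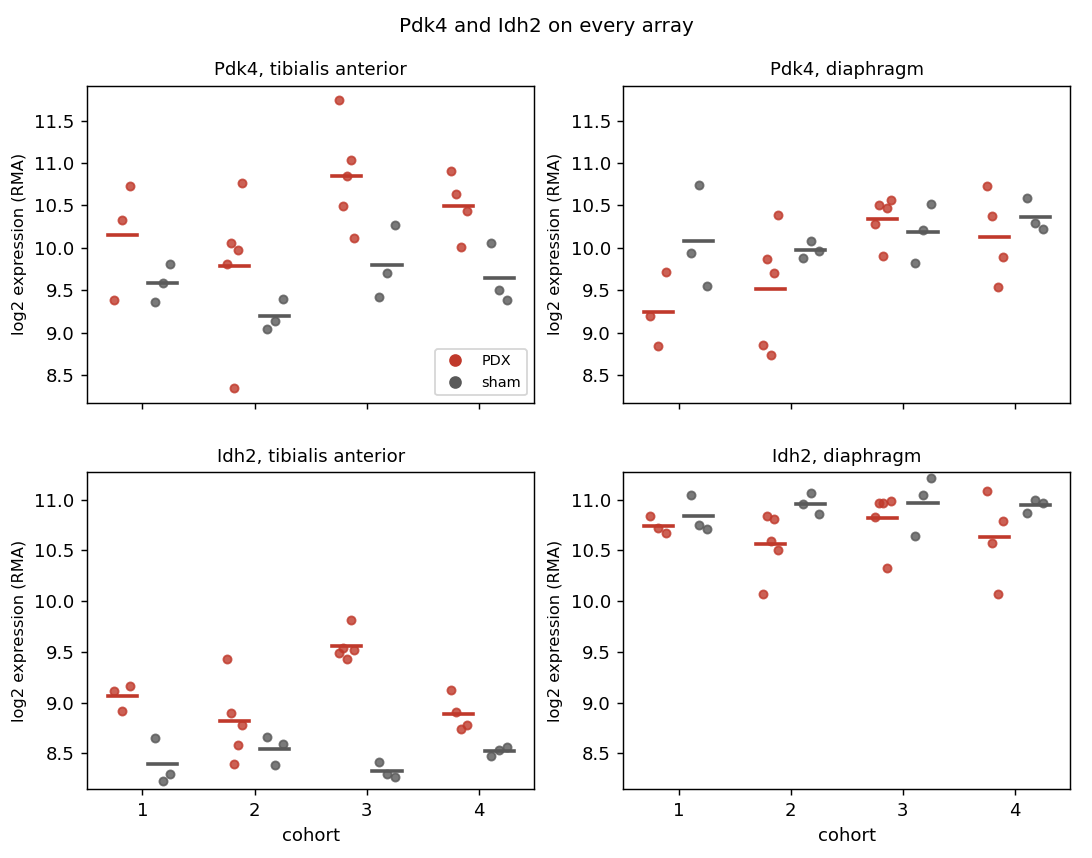
Log2 levels of Pdk4 (upper row) and Idh2 (lower row) on every array of TA (left) and diaphragm (right), by cohort, for PDX (red, left) and sham (grey, right), with bars at the group means. In TA the PDX means lie above the sham means in all 4 cohorts for both genes, and in the diaphragm Idh2 PDX means lie below.

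Of the 14 TCA cycle genes, 7 fell and 1 rose in TA, and 8 fell and 0 rose in the diaphragm. Idh2 encodes the mitochondrial isocitrate dehydrogenase that makes NADPH. It ran between 8.398 and 9.81 in TA PDX muscles (median 9.11) and between 8.23 and 8.66 in TA sham muscles (median 8.45). PDX arrays were higher, with 15 of 17 above the highest sham array. Idh2 rose by 0.64 in TA (SE 0.08, 95% CI 0.47 to 0.80, adjusted p = 5.4e-06), which is 1.55-fold, and it passed in all 29 fits that left out 1 array.

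The rise of Idh2 varied among cohorts, at 0.67, 0.27, 1.23 and 0.36 in cohorts 1 to 4. The moderated F test (limma) of equal cohort effects gave an unadjusted p of 0.00085, which did not pass over all genes. In the diaphragm, Idh2 ran between 10.1 and 11.1 in PDX mice (median 10.8) and between 10.6 and 11.2 in sham mice (median 10.97). The groups overlapped, and the difference was -0.24 (SE 0.10, adjusted p = 0.13). The diaphragm effect minus the TA effect was -0.87 (SE 0.13, adjusted p = 8.5e-06), and -0.91 without the arrays with hepatocyte signal (adjusted p = 2.5e-05).

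Idh1, the cytosolic NADPH-making enzyme, differed by 0.49 in TA (SE 0.18, adjusted p = 0.072), with 16 of 17 PDX arrays above the sham mean of their cohort. The exception was cohort 3 replicate 1 at 4.61, and without it Idh1 was higher by 0.60 (adjusted p = 0.00020). In the diaphragm Idh1 differed by -0.14 (SE 0.16, adjusted p = 0.69). Its levels there moved with the hepatocyte arrays, with PDX means of 7.79 on arrays with hepatocyte signal and 7.12 on the others, against sham means of 7.90 and 7.26.

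The NAD-dependent isocitrate dehydrogenase (Idh3a, Idh3b, Idh3g) works within the cycle. Idh3a, its catalytic subunit, ran between 8.99 and 10.1 in TA PDX muscles (median 9.90) and between 9.92 and 10.4 in TA sham muscles (median 10.1). It fell by 0.31 in TA (SE 0.08, adjusted p = 0.0089), with all 17 PDX arrays below the sham mean of their cohort. Its diaphragm level fell by 0.42 (SE 0.11, adjusted p = 0.0098), with levels between 8.65 and 9.82 in PDX mice (median 9.38) against 9.37 to 9.86 in sham mice (median 9.79). The diaphragm call of Idh3a was lost without cohort 1, without cohort 4 and under the stricter exclusion. Idh3b fell by 0.19 in TA (SE 0.06, adjusted p = 0.024) and differed by -0.17 in the diaphragm (adjusted p = 0.11). Its TA call was lost on centring the arrays on their medians, on leaving out any cohort and with the cohort as the replicate. Idh3g did not pass, at -0.16 in TA (adjusted p = 0.058) and -0.14 in the diaphragm (adjusted p = 0.23).

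Dlst, the succinyltransferase core of the 2-oxoglutarate dehydrogenase complex, fell in TA with little overlap of the groups. It ran between 8.29 and 8.82 in TA PDX muscles (median 8.55) and between 8.80 and 8.99 in TA sham muscles (median 8.89). All 17 PDX arrays lay below the sham mean of their cohort and 15 below the lowest sham array, a difference of -0.33 (SE 0.05, adjusted p = 7.3e-05). In the diaphragm it ran between 8.21 and 9.11 in PDX mice (median 8.68) and between 8.74 and 9.14 in sham mice (median 8.99), and fell by 0.38 (SE 0.08, adjusted p = 0.0021). The same fall of 0.38 was found without the arrays with hepatocyte signal (adjusted p = 0.025), but the call was lost under the stricter exclusion. Ogdh, the decarboxylase of the same complex, differed by -0.05 in TA (adjusted p = 0.64) and by -0.22 in the diaphragm (adjusted p = 0.10).

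Succinyl-CoA ligase, made of the shared subunit Suclg1 with Sucla2 or Suclg2, passed in the diaphragm alone. Suclg1 fell there by 0.38 (SE 0.08, adjusted p = 0.0022), with levels between 6.69 and 7.58 in PDX mice (median 7.10) against 7.09 to 7.69 in sham mice (median 7.48). Sucla2 fell by 0.35 (SE 0.09, adjusted p = 0.015) and Suclg2 by 0.27 (SE 0.08, adjusted p = 0.026). Without DIA PDX cohort 1 replicate 2 or DIA sham cohort 4 replicate 3, Suclg2 did not pass (adjusted p of at most 0.061). Neither Sucla2 nor Suclg2 passed in the diaphragm without the arrays with hepatocyte signal, while Suclg1 did. Under the stricter exclusion Suclg1 did not pass either. In TA the differences were -0.17 for Suclg1, -0.14 for Sucla2 and -0.07 for Suclg2. The tests of the difference between muscles for these 3 genes gave -0.20, -0.21 and -0.19, with adjusted p between 0.28 and 0.31.

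Fh1, the fumarase, separated the groups of TA almost completely. It ran between 8.60 and 9.20 in TA PDX muscles (median 8.98) and between 9.18 and 9.34 in TA sham muscles (median 9.22). Only 1 PDX array reached the sham range, and the difference was -0.25 (SE 0.05, adjusted p = 0.0011). In the diaphragm it ran between 8.69 and 9.34 in PDX mice (median 9.03) and between 9.09 and 9.46 in sham mice (median 9.31), a difference of -0.27 (SE 0.07, adjusted p = 0.0080). It differed by -0.29 without the arrays with hepatocyte signal and did not pass there (adjusted p = 0.097).

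Malate dehydrogenase fell in both compartments of the cell. Cytosolic Mdh1 ran between 8.93 and 10.2 in TA PDX muscles (median 10.04) and between 10.1 and 10.5 in TA sham muscles (median 10.3), and fell by 0.33 (SE 0.09, adjusted p = 0.0097). In the diaphragm it ran between 10.1 and 10.9 in PDX mice (median 10.6) and between 10.7 and 10.9 in sham mice (median 10.8), and fell by 0.30 (SE 0.08, adjusted p = 0.014). Mitochondrial Mdh2 fell by 0.31 in TA (SE 0.06, adjusted p = 0.00052), with all 17 PDX arrays below the sham mean of their cohort. In the diaphragm Mdh2 fell by 0.24 (SE 0.07, adjusted p = 0.035), a call lost when DIA PDX cohort 1 replicate 3 or any of 8 sham arrays was left out (adjusted p of at most 0.069). These sham arrays were replicates 1 and 2 of cohorts 1, 2 and 4 and replicates 2 and 3 of cohort 3. Without the arrays with hepatocyte signal the diaphragm differences were -0.26 for Mdh1 and -0.20 for Mdh2, and neither passed.

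Cs, citrate synthase, a customary measure of mitochondrial content, had levels between 9.34 and 10.3 in TA PDX muscles (median 9.97) and between 9.90 and 10.5 in TA sham muscles (median 10.2). The difference was -0.23 in both muscles. In TA it passed (SE 0.06, adjusted p = 0.011), while in the diaphragm the spread was wider (SE 0.09, adjusted p = 0.085).

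In the last group, anaplerosis, malic enzymes and the aspartate shuttle, 0 of 6 genes passed in TA, where by unadjusted p Pcx, Got1 and Got2 were lower, and the diaphragm had 1 lower and 1 higher gene. Me1, the cytosolic malic enzyme that supplies NADPH, ran between 6.18 and 7.31 in PDX diaphragms (median 6.82) and between 6.76 and 7.61 in sham diaphragms (median 7.21). It fell there by 0.41 (SE 0.09, adjusted p = 0.0036), with 16 of 17 PDX arrays below the sham mean of their cohort. This diaphragm call was lost without the arrays with hepatocyte signal, without cohort 2 and with the cohort as the replicate. In TA Me1 differed by 0.12 (SE 0.08, adjusted p = 0.39). The diaphragm effect minus the TA effect was -0.53 (SE 0.12, adjusted p = 0.0033), and it was -0.53 without the arrays with hepatocyte signal (adjusted p = 0.021). Without cohort 2 this difference between the muscles did not pass.

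Me2, a mitochondrial malic enzyme that uses NAD, was 0.31 higher in PDX diaphragms (SE 0.07, adjusted p = 0.0048). It ran between 4.5 and 5.17 in PDX diaphragms (median 4.78) and between 4.32 and 4.73 in sham diaphragms (median 4.53), with 11 of 17 PDX arrays above the highest sham array. The difference was 0.35 without the arrays with hepatocyte signal (adjusted p = 0.058). Macrophage markers rose in the same muscles, as given above, and their part in Me2 and Pdk3 was not tested. Me3, the mitochondrial enzyme that uses NADP, differed by -0.08 in TA and -0.02 in the diaphragm, but its diaphragm cohorts were spread between -0.40 and 0.51 (unadjusted p = 0.011, moderated F test of limma, not past the adjusted threshold).

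Pcx, pyruvate carboxylase, which refills the cycle with oxaloacetate and is abundant in liver and fat, moved with the hepatocyte arrays. PDX diaphragms averaged 6.78 on arrays with hepatocyte signal and 5.48 on the others, and sham diaphragms averaged 6.70 and 6.28. The difference over all arrays was -0.48 (SE 0.27, adjusted p = 0.31), and -0.83 without the arrays with hepatocyte signal (SE 0.25, adjusted p = 0.063). In TA the difference was -0.45 (SE 0.16, adjusted p = 0.062). Adipocyte markers moved the same way in the diaphragm as Pcx and Me1: 6 of 6 were below 0, 1 passed as lower, and their median was -0.67. Their mean ran between 3.94 and 6.84 in PDX diaphragms (median 5.40) and between 4.85 and 6.92 in sham diaphragms (median 6.13). Their median was -1.25 without the arrays with hepatocyte signal, where Adipoq, Plin1 and Pck1 passed as lower, and their part in the Pcx and Me1 values was not tested. The aminotransferases of the aspartate shuttle changed little, with Got1 at -0.12 and Got2 at -0.14 in TA, and -0.21 and -0.11 in the diaphragm, none past the threshold.

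The muscles differed in their tumour effect for 4 members, all lower in the diaphragm than in TA (Pdk4, Idh2, Pdp2, Me1), where 2.67% of all genes passed as lower and 3.66% as higher. For Pdp2, whose TA level lay below the median of all values, a fall in TA could hardly be measured, so its difference cannot be read as an unequal response. By limma, 0 members passed as higher, and at an unadjusted p under 0.05 there were 7 lower and 2 higher members. The share of all genes at that unadjusted threshold was not counted, so these unadjusted counts have no background to be set against. After centring the arrays on their medians, 43.3% of all genes called for this difference were higher, against 57.8% before, and the members' counts of 4 lower and 0 higher did not move. Without the arrays with hepatocyte signal, Pdk4, Idh2 and Me1 passed. Under the stricter exclusion Idh2 passed, and Pdk4, Pdp2 and Me1 did not. With cohort 1 left out, 2 members passed, and the Pdk4 difference was -1.01 (adjusted p = 0.064).

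The direction of the effects was shared by the cohorts for most members. All 4 cohort differences lay below 0 for 20 members in TA and for 23 in the diaphragm, where 14.6% of all genes had this pattern in each muscle. The moderated F test found 0 members whose cohort effects differed after adjustment in either muscle, and among all genes 3 passed in TA and 1 in the diaphragm. At an unadjusted p under 0.05 only Idh2 in TA and Me3 in the diaphragm stood out.

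Mice without a tumour differed between the muscles in 16 of the 32 members. In sham mice, 9 members were higher and 7 were lower in the diaphragm than in TA, where 15.2% of all genes passed as higher and 24.5% as lower. Lower members were thus not more frequent than lower genes among all genes. Idh2 showed the widest gap, with levels between 10.6 and 11.2 in sham diaphragms (median 10.97) and between 8.23 and 8.66 in sham TA (median 8.45). No array overlapped, and the difference was 2.48 (SE 0.10, adjusted p = 2e-25), which is 5.58-fold. Idh1 was higher in the sham diaphragm by 1.28 (SE 0.19, adjusted p = 4.8e-07) and Pdp2 by a fitted 1.095 (SE 0.13, adjusted p = 1.5e-09), a size limited by its TA level near background. Pdk4 was higher by 0.59 (SE 0.20, adjusted p = 0.018).

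Among the lower genes, Pdp1 differed most, at -0.75 (SE 0.19, adjusted p = 0.0015). Its level moved with the arrays with hepatocyte signal, since sham diaphragms averaged 7.345 on these and 7.849 on the others, and the call was lost without them (-0.55, adjusted p = 0.086). Me3, Pdpr, Idh3a, Me1, Pdk2 and Suclg1 were lower by 0.44 to 0.19 on the log2 scale. Pdk2 lost its call on leaving out any of 13 of the 58 arrays, and Suclg1 on leaving out any of 15. Without the arrays with hepatocyte signal, 9 members were higher and 4 lower. Of all 23185 genes, 2773 were higher and 2883 lower in that fit. There Idh1 was higher by 1.007 and Pdk4 by 0.64 (adjusted p = 0.061). With every array, none of the 5 complex subunits passed, with differences between -0.21 and 0.09.

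The sham diaphragm thus lay above the sham TA for Pdk4 and Idh2, which rose with the tumour in TA and did not pass in the diaphragm. Idh2 averaged 9.10 in TA PDX muscles and 8.45 in TA sham muscles, and 10.7 in PDX diaphragms and 10.9 in sham diaphragms.

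**Figure D5:**
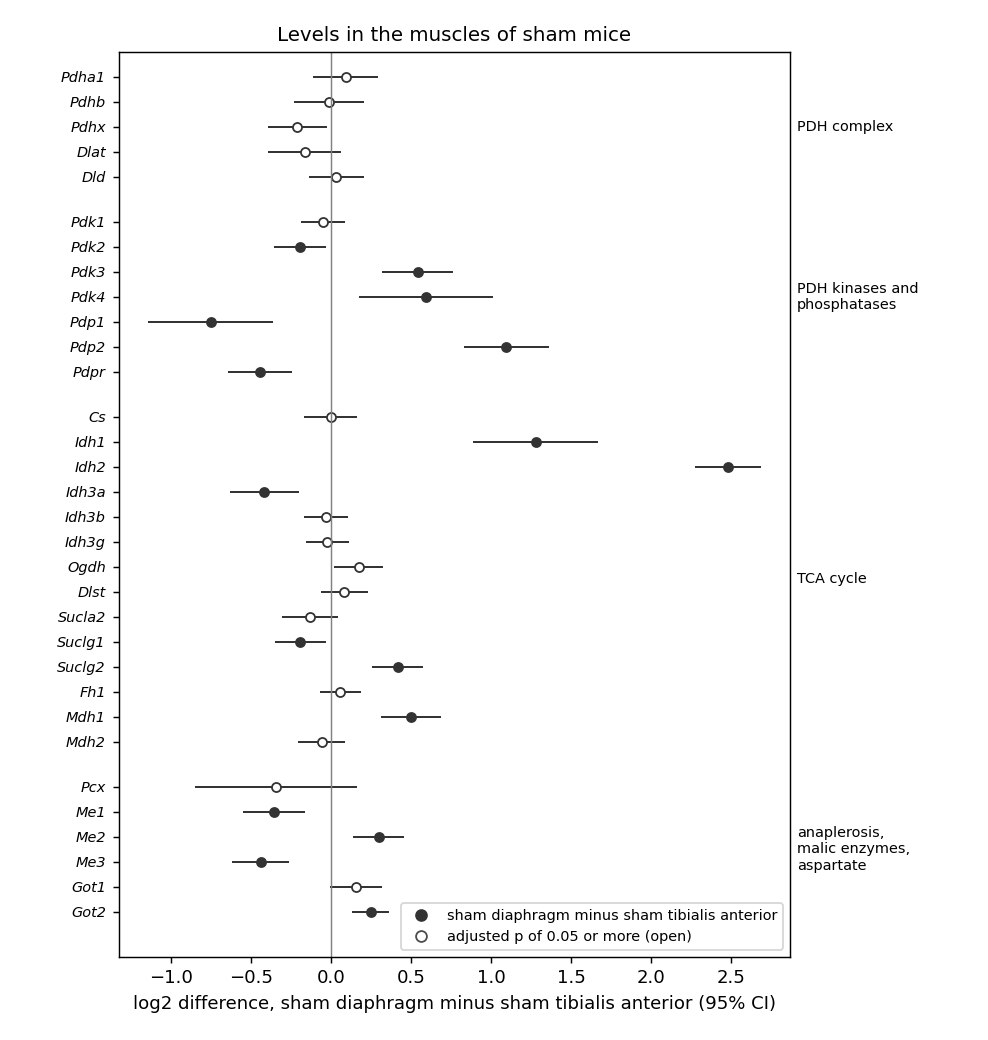
Difference between sham diaphragm and sham TA for the 32 genes, in log2 units with 95% confidence intervals, filled points marking an adjusted p under 0.05. Idh2 stands far to the right at 2.48, and Pdp1 lies furthest to the left at -0.75.

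Genes around the module were read from lists of neighbouring pathways. Of 10 measured genes, which held succinate dehydrogenase, its assembly factors, cytosolic aconitase and the oxoglutarate dehydrogenase paralogue Ogdhl, 6 fell in TA and 6 in the diaphragm. Sdhc, a membrane subunit, fell by 0.38 in TA (SE 0.08, adjusted p = 0.0024) and by 0.37 in the diaphragm (SE 0.08, adjusted p = 0.0021). Sdhaf4, an assembly factor, fell by 0.55 in the diaphragm (SE 0.07, adjusted p = 2.2e-05), and its tumour effect was lower there than in TA by 0.48 (adjusted p = 0.0020). Leaving out the arrays with hepatocyte signal, 4 of the 10 were lower in the diaphragm (Sdhb, Sdhaf1, Sdhaf3, Sdhaf4), and Sdhc did not pass there.

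The lipoate and thiamine genes supply cofactors that pyruvate dehydrogenase needs. Of 10 measured, 1 fell and 1 rose in TA, and 4 fell in the diaphragm. Ndufab1, the acyl carrier protein on which lipoate is built, fell by 0.58 in TA (SE 0.10, adjusted p = 0.00017) and by 0.54 in the diaphragm (SE 0.09, adjusted p = 0.00015). Slc19a2, a thiamine transporter, rose by 0.33 in TA (SE 0.08, adjusted p = 0.0039). In the diaphragm without the arrays with hepatocyte signal, 2 of the 10 were lower (Ndufab1, Mecr).

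The branched-chain 2-oxoacid dehydrogenase is a sister complex that shares Dld. Of 7 genes of this complex, its partners and another 2-oxoacid dehydrogenase, Dhtkd1, 0 passed in TA by limma and 6 fell in the diaphragm, while 2 passed the test between the muscles (Bckdha, Bckdhb). Bckdha, a decarboxylase subunit, fell by 0.46 in the diaphragm (SE 0.08, adjusted p = 0.00041) and differed by 0.03 in TA, and the test of the difference gave -0.49 (SE 0.09, adjusted p = 0.00037). Bckdhb differed by 0.21 in TA (adjusted p = 0.14), fell by 0.35 in the diaphragm, and its difference between muscles was -0.56 (adjusted p = 0.014). Leaving out the arrays with hepatocyte signal, 3 of the 7 were lower in the diaphragm (Bckdha, Dbt, Ppm1k), and Bckdhb at -0.47 did not pass there (adjusted p = 0.055). Both genes passed the test of the difference in that fit.

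Among 12 genes of pyruvate, lactate and acetyl-CoA handling, 2 rose and 4 fell in TA, and 4 fell in the diaphragm. Gpt2, the mitochondrial alanine aminotransferase that links pyruvate to alanine, ran between 8.18 and 9.004 in TA PDX muscles (median 8.58) and between 7.62 and 8.53 in TA sham muscles (median 8.09). It rose by 0.53 (SE 0.07, adjusted p = 2e-05), though the groups overlapped. Acss1, a mitochondrial acetyl-CoA synthetase, rose by 0.35 in TA (adjusted p = 0.0074) and fell by 0.51 in the diaphragm (adjusted p = 0.0072), and the difference of -0.86 passed (SE 0.16, adjusted p = 0.00020). Of 10 measured genes of other anaplerotic routes and carriers, 2 fell in TA and 4 in the diaphragm, with the oxoglutarate carrier Slc25a11 lower in both, at -0.32 and -0.36. Leaving out the arrays with hepatocyte signal, the diaphragm had 2 lower genes of pyruvate, lactate and acetyl-CoA handling (Ldhb, Gpt) and 1 of the other routes and carriers (Slc25a11). Acss1 did not pass there at -0.56 (adjusted p = 0.081), while its difference between the muscles did.

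Of 8 measured genes known to rise with Pdk4 in fasted muscle, 4 rose in TA and 3 in the diaphragm. Fkbp5, a glucocorticoid target, ran between 5.54 and 8.58 in TA PDX muscles (median 7.37) and between 4.33 and 6.56 in TA sham muscles (median 5.33). It rose by 1.86 in TA (SE 0.23, adjusted p = 3.1e-06) and by 1.53 in the diaphragm (SE 0.21, adjusted p = 3.6e-05). Ddit4, an inhibitor of mTORC signalling, rose by 1.90 in TA and by 0.86 in the diaphragm, and the transcription factor Foxo1 by 0.79 and 0.24.

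Klf15, a transcription factor induced by glucocorticoids, also differed between the muscles. It rose by 0.69 in TA (SE 0.10, adjusted p = 3.2e-05) and differed by -0.10 in the diaphragm (adjusted p = 0.69), with a difference between muscles of -0.79 (SE 0.15, adjusted p = 0.00052). Angptl4, Ucp3, Cpt1a and Plin2 passed in neither muscle.

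Among 17 regulators of these genes, 3 rose and 3 fell in TA, and 2 rose and 7 fell in the diaphragm. Perm1, a muscle coregulator of mitochondrial genes, fell by 0.59 in TA (SE 0.19, adjusted p = 0.034) and by 0.84 in the diaphragm (SE 0.17, adjusted p = 0.0015). Sirt3, a mitochondrial deacetylase, fell by 0.43 in TA and by 0.37 in the diaphragm. Ppargc1a, the coactivator of mitochondrial biogenesis, differed by -0.23 in TA (adjusted p = 0.56) and by -0.18 in the diaphragm (adjusted p = 0.67). Without the arrays with hepatocyte signal, 1 regulator was higher (Foxo1) and 2 were lower (Esrrb, Lonp1) in the diaphragm. Perm1 at -0.78 (adjusted p = 0.055) and Sirt3 at -0.37 (adjusted p = 0.076) did not pass in that fit. Under the tendon covariate 0 genes of these lists passed in TA.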

How the data were processed

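Total RNA of TA and diaphragm from 58 samples was hybridised to Affymetrix arrays. The deposited values are log2 expression levels that the authors made with RMA in affy 1.36.1 and R 2.15.1, per the submitters' processing notes. Array medians lay between 3.76 and 3.94. Of 25206 probe sets, 23185 had 1 gene symbol in the platform annotation and 2021 had none, and the latest gene table changed 0 symbols. Samples were grouped by muscle, treatment and cohort from the labels. limma 3.58.1 in R 4.3.3 was fitted per muscle on 8 group means, and on all 58 arrays for contrasts between muscles, with Benjamini-Hochberg adjustment over 23185 genes. On data simulated for the TA comparison, 92% of genes changed by 0.5 and 99% of those changed by 1.0 log2 units were recovered. Smaller changes were not simulated, and the members called lower in TA differed by -0.49 to -0.19. The titles carry matching numbers for TA and diaphragm but do not say which arrays share a mouse, so p-values measure the spread between samples. The members and lists were chosen with earlier results of these data known. Outside the members, a list names up to 3 genes with the largest difference among those that passed, or else the gene with the smallest p; any others were picked after their values were seen. Alternatives varied the scaling, the filter on dim genes, the variance model, the cohorts, the marker covariates and the arrays kept. Promoter windows came from RefSeq (GRCm38.p6).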

Additional observations from a re-analysis of the deposited data

Results flagged for a closer look

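In 192 tests of a gene in a group of 4 or 5 PDX arrays, 20 arrays stood apart from the rest of their group, where chance gives about 1 in 20. Most lay on 2 arrays. DIA PDX cohort 3 replicate 4, which had the highest hepatocyte mean of the PDX diaphragms (11.2), was low for Pdha1 (9.001), Pdhb (8.19), Dld (8.86), Pdp1 (6.82), Pdpr (7.08), Idh2 (10.3), Idh3a (8.65), Dlst (8.21), Sucla2 (8.78), Fh1 (8.78) and Mdh1 (10.2). TA PDX cohort 3 replicate 1 was low for Pdk2 (10.2), Pdp1 (5.88), Idh1 (4.61) and Mdh1 (8.93), and it held the highest Pdk4 level of TA at 11.7. TA PDX cohort 2 replicate 1 was low for Idh3a (9.60), Idh3g (10.2) and Mdh2 (10.1). Pcx was high in TA PDX cohort 2 replicate 3 at 7.82, where the other arrays held 6.19 to 6.38. Me2 was high in DIA PDX cohort 4 replicate 2 at 5.02, where the others held 4.59 to 4.62.

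The test of the difference itself passed for Pdk4 (-1.10), Idh2 (-0.87), Pdp2 (-0.63) and Me1 (-0.53), each as diaphragm minus TA tumour effect. Pdp2 lay below the median of all values in TA, so its difference cannot be read as an unequal response. Its call was lost without the arrays with hepatocyte signal, and without cohort 1 or cohort 3. The Pdk4 call was lost without cohort 1 and the Me1 call without cohort 2.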

How the results depend on the processing

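Of the called members, 0 of 14 in TA, 2 of 17 in the diaphragm, 1 of 4 for the difference and 10 of 16 in sham muscles passed under every alternative other than leaving out single arrays. TA counts of 2 higher and 12 lower became 4 higher without dim genes or with array weights, 1 higher without cohort 4, and 0 and 0 with the tendon covariate, where Pdk4 turned to -0.60, Cs to 0.028, Idh3a to 0.025 and Idh3b to 0.00087. Diaphragm counts of 2 higher and 15 lower became 1 and 8 without cohort 1, 0 higher without cohort 2, 0 and 9 with the cohort as the replicate, 9 lower with the slow fibre covariate, 0 and 6 without arrays with hepatocyte signal, and 0 and 2 without all 15 arrays with a hepatocyte mean of 6 or more and without cohort 1. The difference had 1 higher member with array weights, 2 lower without cohort 1 and 1 lower under that strictest exclusion, and sham muscles had 4 and 2 lower under the 2 exclusions. The covariates, exclusions and smaller cohorts also left fewer degrees of freedom, but the SE did not always grow. The SE of the called diaphragm members was 0.89 times as large with the slow fibre covariate. In TA it was 2.14 times as large with the tendon covariate. The cause of each change was not tested.

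Leaving out each array in turn gave 2 to 5 higher and 10 to 14 lower members in TA, 1 to 2 and 14 to 16 in the diaphragm, 0 and 4 to 5 for the difference, and 9 to 10 and 5 to 8 in sham muscles. With the replicate block the counts were 2 and 12 in TA, 2 and 15 in the diaphragm, 0 and 4 for the difference and 9 and 8 in sham muscles. Not every same-numbered pair deviated together, so the numbers were not taken to pair the samples: 9 of 29 TA and diaphragm pairs had a correlation of deviations over 0.1, 1 of 12 PDX and sham pairs in TA and 6 of 12 in the diaphragm, and 14, 2 and 4 of these samples correlated best with their own number, a hint of pairing between the muscles. Over all genes, 1465 higher and 1514 lower calls in TA became 678 and 748 without cohort 1, and 1366 and 1526 in the diaphragm became 680 and 821. Pdk3 and Pdp2 lay near background in at least 1 group, which limits how far they can be seen to fall.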
